A study of Mus musculus with 8 samples.

Results

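Granulosa cells of the mouse ovary were compared before and after the ovulatory hormone signal in 4 ATAC-seq libraries, of 8 in the whole study. ATAC-seq marks open chromatin by letting the transposase Tn5 insert adapters where DNA is exposed. The mice were wildtype CBA x C57BL/6 F1 animals aged 21 days. All of them had received 5 IU of eCG, an equine hormone also called PMSG, which makes follicles grow. The 2 libraries titled PMSG stand for mice killed 46 h after eCG, and the 2 titled hCG for mice that were then given 5 IU of hCG and killed 6 h later. Each replicate was a pool of granulosa cells from 2 to 3 mice, released by puncturing the ovaries. The labels disagree about time. The hCG titles go with a peri-ovulatory source name but with a tag of 0 h, and the PMSG titles with a pre-ovulatory source name but with a tag of 6 h. Titles and source names were followed, so a direction stated between hCG and PMSG would turn round if the tags were the correct label.

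All intervals of the 4 peak lists were pooled, and every interval that shared 1 bp or more with another was merged, on chromosomes 1 to 19 and X, which gave 81943 regions. A library held a region if any of its peaks lay in it. Regions held by both hCG libraries and by neither PMSG library numbered 14473, or 17.7% of all merged regions, and are called hCG-only. Regions held by both PMSG libraries and by neither hCG library numbered 8511, or 10.4%, and are called PMSG-only. Another 40922 regions were held by all 4 lists, and 18037 showed some other pattern. The sizes of the sets depended on list length. With every list cut to 57992 peaks by fold, the authors' enrichment over background, the hCG-only and PMSG-only regions numbered 12103 and 10514. Cut by −log10 q they numbered 12167 and 10450, and with the 20000 peaks of highest fold per list 5104 and 4775. These sets are defined by presence in a peak list, so absence means that no peak passed the deposited threshold, not that the chromatin was closed.

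In the ovary, luteinising hormone acts on granulosa cells through the receptor LHCGR and raises cyclic AMP. Its surge sets off EGF-like growth factors, expansion of the cumulus around the oocyte, breakdown of the follicle wall and the switch from oestrogen to progesterone synthesis. hCG binds the same receptor and stands in for the surge. Open sites near gene starts are mostly promoters, which tend to be open in many cell types, whereas sites far from starts include the enhancers that differ between cell states.

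Sequences are shown for gene starts that lay in a group-only region, since these are the places where a promoter differed in presence between the groups. The promoter windows run from 250 bases before to 50 bases after the RefSeq start in assembly GRCm38.p6, 5′ to 3′ along the gene, and capitals mark motif cores. Havcr2, Ptpn22, Klrb1a and Ankrd1 were hCG-only, while Cyp4f15 and Col6a4 were PMSG-only. They were picked from the 10 best-ranked starts of each set and do not stand for all group-only promoters. Each hCG-only window shown holds a RUNX core, but 20.4% of all hCG-only promoters did, against 20.5% of promoters without a region. Havcr2 encodes the immune receptor TIM-3, and its window at chr11:46454681-46454980 (plus strand) holds an AP-1 core and a RUNX core.
Havcr2: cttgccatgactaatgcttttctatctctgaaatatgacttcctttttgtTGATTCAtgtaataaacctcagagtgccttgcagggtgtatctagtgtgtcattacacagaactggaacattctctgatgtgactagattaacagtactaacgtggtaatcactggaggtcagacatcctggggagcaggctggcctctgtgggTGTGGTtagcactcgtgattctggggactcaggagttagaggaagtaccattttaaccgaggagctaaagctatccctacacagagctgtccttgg
Ptpn22 encodes a phosphatase of lymphocytes, and its window at chr3:103860027-103860326 (plus strand) holds 3 RUNX cores, the foremost of which overlaps a steroid receptor core, and a TEAD core.
Ptpn22: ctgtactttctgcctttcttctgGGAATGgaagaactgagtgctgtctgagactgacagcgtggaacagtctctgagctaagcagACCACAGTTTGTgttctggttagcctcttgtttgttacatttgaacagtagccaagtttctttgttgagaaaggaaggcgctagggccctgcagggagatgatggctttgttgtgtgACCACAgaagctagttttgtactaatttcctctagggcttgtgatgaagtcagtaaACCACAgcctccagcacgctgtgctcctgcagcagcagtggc
Klrb1a encodes a lectin-like receptor of natural killer cells, and its window at chr6:128622885-128623184 (minus strand) holds a RUNX core and an NR5A core.
Klrb1a: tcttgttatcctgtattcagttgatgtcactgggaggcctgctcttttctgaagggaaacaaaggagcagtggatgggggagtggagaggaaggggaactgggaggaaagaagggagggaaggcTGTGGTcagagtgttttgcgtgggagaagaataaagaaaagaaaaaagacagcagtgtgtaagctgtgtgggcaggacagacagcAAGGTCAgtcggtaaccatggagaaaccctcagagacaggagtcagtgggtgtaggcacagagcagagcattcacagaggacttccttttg
Ankrd1 encodes a repeat protein known as a target of YAP and TEAD, and its window at chr19:36119795-36120094 (minus strand) holds 2 TEAD cores besides RUNX, NF-Y and GATA cores.
Ankrd1: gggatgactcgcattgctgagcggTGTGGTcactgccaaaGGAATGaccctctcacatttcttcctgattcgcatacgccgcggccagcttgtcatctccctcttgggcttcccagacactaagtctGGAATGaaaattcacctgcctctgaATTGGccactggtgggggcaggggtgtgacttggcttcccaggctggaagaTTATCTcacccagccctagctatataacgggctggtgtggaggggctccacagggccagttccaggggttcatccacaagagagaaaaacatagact
Cyp4f15 encodes a cytochrome P450 that oxidises fatty acids, and its window at chr17:32685409-32685708 (plus strand) holds an SP/KLF core and an NF-Y core.
Cyp4f15: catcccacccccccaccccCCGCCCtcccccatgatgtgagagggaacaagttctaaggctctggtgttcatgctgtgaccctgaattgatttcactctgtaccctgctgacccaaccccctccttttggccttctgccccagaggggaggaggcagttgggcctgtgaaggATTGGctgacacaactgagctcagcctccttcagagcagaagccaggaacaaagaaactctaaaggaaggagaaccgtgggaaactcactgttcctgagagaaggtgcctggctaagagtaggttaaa
Col6a4 encodes a collagen VI chain, and its window at chr9:106096642-106096941 (minus strand) holds 2 SP/KLF cores and an NF-Y core.
Col6a4: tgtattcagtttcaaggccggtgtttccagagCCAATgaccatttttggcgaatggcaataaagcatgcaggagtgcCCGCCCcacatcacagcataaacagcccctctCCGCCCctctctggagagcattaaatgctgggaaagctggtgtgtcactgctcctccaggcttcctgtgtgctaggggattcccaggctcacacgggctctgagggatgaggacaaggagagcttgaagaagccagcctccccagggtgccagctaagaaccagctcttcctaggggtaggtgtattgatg

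The Havcr2 start lay in a peak of fold 13.5 in hCG replicate 1 and 14.4 in replicate 2, and in no PMSG peak. Fold here is the authors' enrichment of a peak over background within its own library, and it ranks peaks inside a list only. At Ptpn22 the folds were 11.1 and 10.4, at Klrb1a 13.8 and 13.7, and at Ankrd1 11.9 and 11.4. At Cyp4f15 the PMSG folds were 12.2 and 15.7, and at Col6a4 they were 10.02 and 10.7. The replicates lay close together in each of these regions, with the widest gap at Cyp4f15. The Havcr2, Ptpn22, Klrb1a and Col6a4 peaks covered the whole window of 300 bases, the Ankrd1 peak covered 224 of them and the Cyp4f15 peak 222. The 10 hCG-only regions over a start with the highest rank also included Dnmt3l, Adcy10, Cxcl14, Atp13a4, Cxcr3 and Slc1a7. Havcr2, Klrb1a, Cxcr3 and Ptpn22 are known from immune cells, and Cxcl14 encodes a chemokine. The 10 highest PMSG-only regions over a start also included Gm21149, Adprhl1, Psen2, Syt10, Rapgef5, Ecrg4, Gjc3 and Serpina5. Gm21149, whose PMSG folds were 19.4 and 18.9, belongs to a family of near-identical copies, so its placement is uncertain.

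Marker genes were checked at their starts, using only markers that have a start in the promoter table. Of 8 granulosa markers, 6 had a peak over the start in hCG replicate 1, 5 in hCG replicate 2 and 6 in each PMSG library, among them Fshr, Cyp19a1, Esr2 and Foxl2. The starts of Inha and Nr5a2 lay in no peak. The starts of 6 of 6 housekeeping genes lay in a peak of all 4 lists. Among 4 theca and stroma markers, Ptch1 and Tcf21 had a peak in both hCG lists and in neither PMSG list, and Insl3 and Pdgfra had none. Of 3 immune markers, the macrophage gene Cd68 had a peak in both hCG lists and neither PMSG list, while Ptprc and Itgam had none. The endothelial markers Flt1 and Kdr were held by all 4 lists, and no list held any of the 3 oocyte, 1 smooth muscle or 2 surface epithelium markers. None of the 2 merged regions around Tcf21 was hCG-only, since a merged region counts PMSG peaks anywhere in it. The hCG-only region at Cd68 had low folds, 3.21 and 3.78, and was hCG-only with equal lists by −log10 q but not by fold. Counting all regions within 20 kb of the genes in the lists as deposited, the granulosa markers had 19 hCG-only and 19 PMSG-only of 112 regions. Theca and stroma markers had 5 and none of 29, smooth muscle 4 and 1 of 17, endothelium 9 and 5 of 37, and immune markers 2 and 1 of 15. Oocyte markers had 2 and none of 22, and surface epithelium 1 and 1 of 5. Among all regions within 20 kb of a protein-coding gene 16.9% were hCG-only and 9.01% PMSG-only. The hCG-only share was 17.0% for granulosa, 17.2% for theca and stroma, 23.5% for smooth muscle and 24.3% for endothelium. It was 13.3% for immune, 9.09% for oocyte and 20% for surface epithelium markers. Some markers moved with equal lists by fold. Ptch1 then had 3 and 2 against 3 and none, and the granulosa marker Hsd17b1 none and 4 against 3 and none, while Fshr kept 1 and 3. By −log10 q Ptch1 had 3 and none and Hsd17b1 2 and none. Totals of the marker groups with equal lists were not counted. The part of other cell types in the group-only regions was not tested. In a pool of cells, more cells of a type and more open chromatin per cell cannot be told apart.

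Group-only promoters were few. Of 13968 hCG-only regions outside chromosome 18, which has no starts in the promoter table, 134 overlapped the promoter window of a protein-coding gene, or 0.959%. Of 8214 PMSG-only regions 45 did, or 0.548%, against 25.3% of the regions held by all 4 lists. With every list cut to 57992 peaks, the size of the shortest, by fold, these shares were 0.788% and 1.89%, and by −log10 q they were 0.835% and 0.834%. The higher share in hCG-only regions therefore holds for the lists as deposited and turns round or vanishes at equal list length. Equal length was not an even cut. It removed 7575 and 4335 peaks from hCG replicates 1 and 2, and 0 and 788 from PMSG replicates 1 and 2. By fold, the lowest value kept was 4.56 and 4.22 in the hCG lists, and 1.11 and 3.25 in the PMSG lists. A site of low fold in all lists could thus become PMSG-only, and the part of such sites was not tested. In GC content the 142 hCG-only promoters had a median of 55.7% and the 46 PMSG-only promoters one of 53.3%, both below the 62.3% of promoters held by all 4 lists.

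Motif cores were counted in these windows on both strands. The AP-1 core TGANTCA, bound by FOS and JUN proteins, occurred in 20 of 142 hCG-only promoters, or 14.1%, and in 1 of 46 PMSG-only promoters, or 2.17%. Promoters held by all 4 lists had it in 4.42%, all 21044 promoters in 7.04%, and promoters without a region in 10.6%. The RUNX core TGTGGT occurred in 20.4% of hCG-only, 10.9% of PMSG-only and 14.8% of all promoters, and in 20.5% of promoters without a region. The TEAD core GGAATG occurred in 22.5% of hCG-only, 17.4% of PMSG-only and 13.5% of all promoters, and in 16.8% of those without a region. The NR5A core AAGGTCA, read by the granulosa factors NR5A1 and NR5A2, occurred in 7.75% of hCG-only, 4.35% of PMSG-only and 4.06% of all promoters, and in 6.07% of those without a region. The GATA core AGATAA was found in 7.75% of hCG-only, 15.2% of PMSG-only and 9.68% of all promoters, and in 16.1% of those without a region. The cores typical of promoters open in many cells were scarcer in both sets: the ETS core CCGGAA was found in 9.86% and 2.17% against 28.3% of promoters held by all 4 lists, and the SP/KLF core GGGCGG in 39.4% and 34.8% against 69.1%. The other 6 of the 13 cores searched were as follows. The steroid receptor core ACANNNTGT was found in 7.04% of hCG-only, 4.35% of PMSG-only and 6.03% of all promoters, and the NF-Y core CCAAT in 33.1%, 39.1% and 38.5%. The C/EBP core TTGCNNAA was found in 14.1%, 6.52% and 10.3%, and the CTCF core AGGGGGC in 11.97%, 4.35% and 13.04%. The forkhead core TGTTTAC and the cyclic AMP element TGACGTCA were each found in 2 hCG-only and no PMSG-only promoter, against 3.03% and 2.26% of all promoters. Promoters without a region had the steroid receptor core in 9.83%, NF-Y in 39.7%, C/EBP in 14.4%, CTCF in 6.01%, forkhead in 4.03%, the cyclic AMP element in 0.770%, ETS in 5.55% and SP/KLF in 13.9%. The hCG-only promoters were above them for SP/KLF, CTCF, ETS, AP-1, TEAD, NR5A and the cyclic AMP element, by a larger ratio for SP/KLF, CTCF and ETS than for AP-1, TEAD and NR5A. These are matches of letters, and with 46 PMSG-only promoters 1 promoter is 2.17%.

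Group-only regions were short, and PMSG-only regions shorter than hCG-only ones. The median peak of an hCG-only region was 318 bp in hCG replicate 1 and 323 bp in replicate 2, and that of a PMSG-only region 272 and 269 bp. In regions held by all 4 lists the same libraries had medians of 675, 665, 553 and 544 bp, so the hCG libraries had the wider peaks there too. As merged regions the medians were 359 bp for hCG-only and 312 bp for PMSG-only. That order turned round with the 20000 peaks of highest fold per list, at 566 and 597 bp, and without hCG replicate 1, at 300.0 and 312 bp, or replicate 2, at 283 and 316.5 bp, where a region needs a peak in only 1 hCG library. The median over whole lists was 488 and 502 bp for hCG against 422 and 412 bp for PMSG. Peaks over 1 kb made up 1.06% and 1.21% of the hCG-only peaks in the 2 hCG lists, 0.200% and 0.141% of the PMSG-only peaks in the PMSG lists, and 13.8% to 24.2% of the peaks in regions held by all 4 lists. A larger share of the peaks at shared regions carried several summits, between 25.8% and 28.4%, than at group-only regions, between 10.1% and 12.6%.

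**Figure D1:**
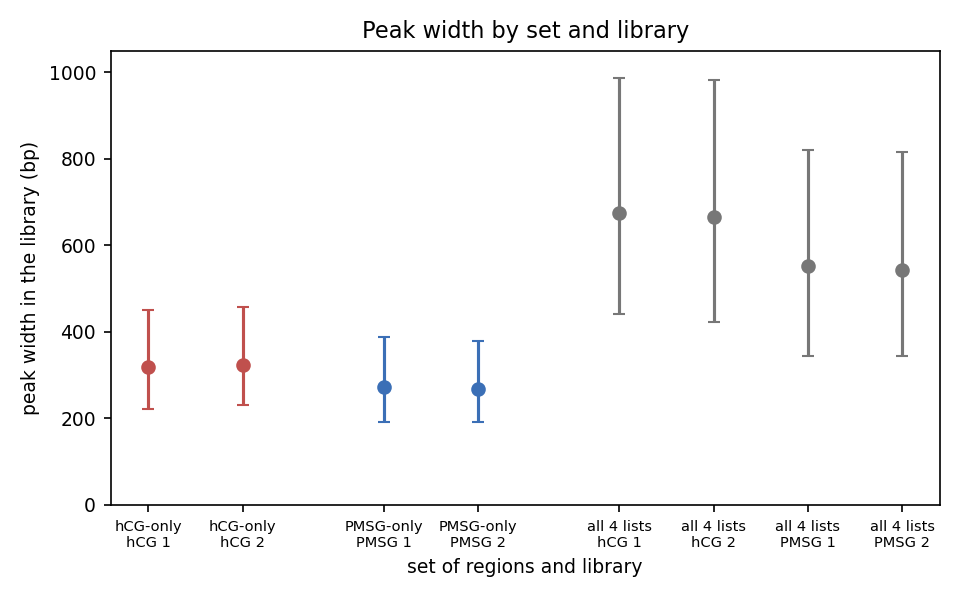
Peak width in bp (vertical axis) for hCG-only, PMSG-only and shared regions (all 4 lists) in each library. Points are medians over regions and bars run from the lower to the upper quartile. The group-only medians lie between 269 and 323 bp and the shared ones between 544 and 675 bp.

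Group-only regions were scarce among regions with long peaks. Merged regions were grouped by the length of their peaks in a library, averaged over the libraries that held them. Where this length was up to 250 bp, 20.6% of regions were hCG-only and 17.3% PMSG-only. Between 250 and 500 bp the hCG-only share was higher, at 23.7%, and the PMSG-only share 12.8%. Between 500 bp and 1 kb these shares were 11.8% and 3.8%, and over 1 kb they were 2.05% and 0.197%, where 97.6% of regions were held by all 4 lists. The covered length per library was 39.0 and 38.2 Mb for hCG and 29.8 and 29.9 Mb for PMSG, a difference of means of 8.72 Mb in which the groups do not overlap. The exact permutation test (two-sided) gave p = 0.33, the smallest that 2 libraries against 2 allow.

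The widest hCG-only regions were long stretches of several summits. The widest, chrX:13294526-13297020, spanned 2495 bp, with its midpoint 1.79 kb from an end of Ddx3x, which encodes an RNA helicase. Its peaks covered 2495 bp with 8 summits in hCG replicate 1 and 1349 bp with 3 summits in replicate 2. The next lay inside Runx2, a transcription factor of the ovulating granulosa cell, at chr17:44599982-44602167, and spanned 2186 bp with folds of 3.77 and 4.42. The widest PMSG-only region, chrX:56390447-56391861, spanned 1415 bp near Smim10l2a, with folds of 7.43 and 9.52. Others of the 5 widest hCG-only regions had their midpoints 2.36 kb from an end of Akirin1 and 207 kb from Prok2. For PMSG, 1 lay inside Grb14. Others had Shisa6 at 62.5 kb, Pcdh7 at 581 kb and Gm41408 at 53.1 kb as the nearest gene end. Each of the 5 widest hCG-only regions was longer than the widest PMSG-only region.

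Regions that failed the rule by 1 peak of the other group resembled those inside it in fold, and regions of a lone library had lower folds. Regions held by both hCG libraries and 1 PMSG library numbered 3355 with a median hCG fold of 7.36, against 7.23 for the hCG-only regions, and their PMSG peak had a median fold of 5.96. Regions held by both PMSG libraries and 1 hCG library numbered 2921 with a median PMSG fold of 8.10, against 7.59 for the PMSG-only regions. In shared regions the median folds were 9.79 for hCG and 10.8 for PMSG. Another 5579 regions were held by a lone hCG library and 5096 by a lone PMSG library, with median folds of 5.16 and 5.91.

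PMSG-only regions lay farther from genes than hCG-only regions. The median distance to the nearest gene start was 40.4 kb for hCG-only, 58.5 kb for PMSG-only and 20.8 kb for shared regions. More than 100 kb from any start lay 27.4%, 37.6% and 19.2% of them, and inside a gene lay 58.2%, 53.1% and 64.3%. Measured to the nearest end of a protein-coding gene, the medians were 22.9 kb for hCG-only and 32.7 kb for PMSG-only. With lists of equal length ranked by −log10 q these were 23.3 and 30.6 kb, and ranked by fold 26.0 and 27.1 kb, so the ranking by fold removed most of the gap. With the 20000 peaks of highest fold per list the order turned round, to 28.3 kb for hCG-only and 15.1 kb for PMSG-only.

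**Figure D2:**
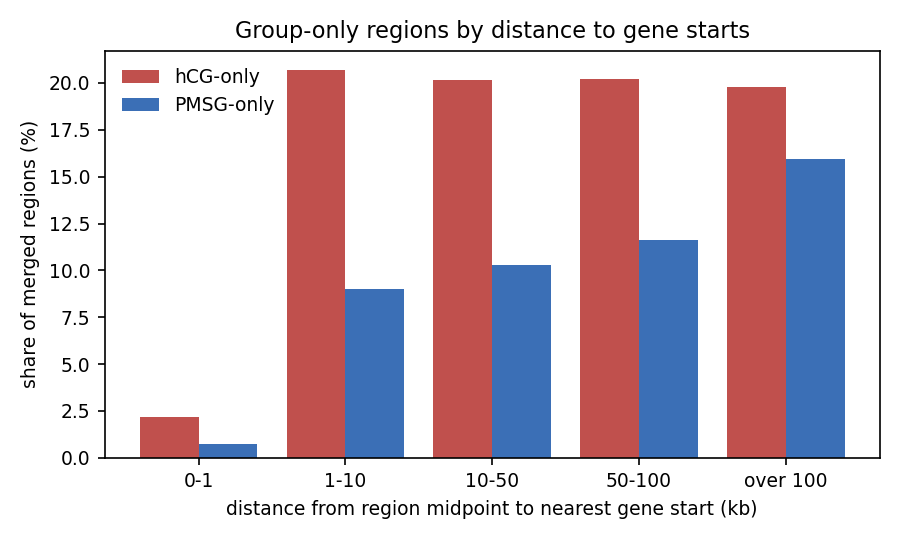
Share of merged regions that were hCG-only or PMSG-only (vertical axis, %), by distance from the region's midpoint to the nearest gene start in kb. From 1 kb outwards the hCG-only bars stay between 19.8% and 20.7%, while the PMSG-only bars climb from 9.0% to 16.0%.

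Seen by distance, the contrast was in the PMSG-only share. Within 1 kb of a start 2.16% of regions were hCG-only and 0.736% PMSG-only. Between 1 and 10 kb the shares were 20.7% and 9.0%, between 10 and 50 kb 20.1% and 10.3%, between 50 and 100 kb 20.2% and 11.6%, and beyond 100 kb 19.8% and 16.0%. The hCG-only share was thus flat outside promoters, and the PMSG-only share rose in every step.

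Gene density gave a like order in the lists as deposited. In windows of 500 kb without the midpoint of a protein-coding gene, hCG-only and PMSG-only regions numbered 931 and 1014, a ratio of 0.918. The ratio was 1.49 with 1 to 3 genes, 1.97 with 4 to 9 and 2.34 with 10 or more, where 2766 hCG-only stood against 1182 PMSG-only regions. At equal list length by fold the 4 ratios were 0.808, 1.12, 1.28 and 1.19, and by −log10 q 0.677, 1.04, 1.31 and 1.52. The lowest ratio stayed in windows without a gene in all 3 versions, but the rise beyond them was smaller at equal length, and by fold it ended at 4 to 9 genes. With the 20000 peaks of highest fold per list the direction turned round, at 0.907 in windows without a gene and 0.756 in those of 10 or more genes. The ratio in windows without a gene passed 1 with a −log10 q of 20 or more, at 1.002, and without hCG replicate 2, at 1.05.

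**Figure D3:**
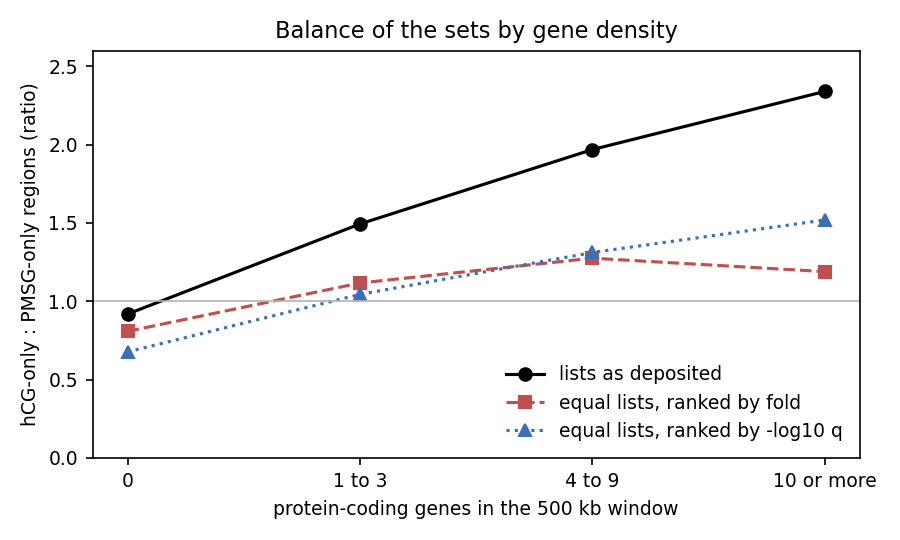
Number of hCG-only regions per PMSG-only region (vertical axis) by the number of protein-coding genes in the 500 kb window, for the lists as deposited and for lists cut to 57992 peaks by fold or by −log10 q. The deposited lists rise from 0.918 to 2.34, and the cut lists start at 0.808 and 0.677.

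By chromosome, hCG-only regions made up 16.2% to 18.8% of regions on the autosomes and 16.1% on X. PMSG-only regions made up 8.27% to 12.55% on the autosomes and 14.9% on X. The ratio ran from 1.45 on chromosome 13 to 2.14 on chromosome 9, and was 1.08 on X, below every autosome. At equal list length the ratio on X was 0.854 by fold and 0.785 by −log10 q.

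Regions of a set bunched along the chromosome only weakly. With a cluster taken as 5 or more regions of a set whose neighbouring midpoints lay 12500 bp or less apart, the hCG-only set held 11 clusters with 57 regions, or 0.394% of the set. Leaving out any 1 library raised this share to between 0.656% and 1.10%, a gap of 25 kb gave 5.20%, and a gap of 5 kb gave 0%. The PMSG-only set held none, and its longest runs had 4 regions. Shared regions formed 563 clusters with 8.52% of their number. The contrast between the sets held for the lists as deposited and not at equal length: with equal lists by fold the hCG-only set had 1 cluster and the PMSG-only set 10, and by −log10 q each had 4.

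The largest hCG-only cluster lay in Zbtb16, a zinc finger transcription factor, where 7 hCG-only regions stood within 42.2 kb at chr9:48775595-48817806. Their folds ran from 4.09 to 14.4 in hCG replicate 1 and from 3.73 to 13.2 in replicate 2. Of these 7 regions, 6 were held by each wild-type library of the progesterone receptor experiment and 1 by each Pgr knockout library. Over all hCG-only regions the wild-type libraries held 79.9% and 91.3%, and the knockout libraries 63.4% and 44.7%. The knockout lists were also shorter, with 58851 and 55654 intervals against 80137 and 84313, and the cause of the difference was not tested. Other hCG-only clusters of 5 overlapped Foxo1, a forkhead factor of growing follicles, Epgn, an EGF-like ligand, and Col4a1, a basement membrane collagen. Further ones overlapped Evi5, Tox2, Pakap, Mbp, Sytl3 with Ezr, and Pkd1l2 with Bco1, and 1 lay near Usp24. PMSG-only runs of 4 overlapped Srgap3, Cdc14a, Fndc3b, Gstp3 and Pkd1l2, and others lay near Dnttip2, Cradd and Reep3. In Pkd1l2, a polycystin-like gene on chromosome 8, a PMSG-only run of 4 ended inside the hCG-only cluster, so the sets changed over within that gene.

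Neighbouring group-only regions more often belonged to the same set at 5 to 10 kb, and to opposite sets at 1 to 5 kb. Of pairs 5 to 10 kb apart 36.3% joined an hCG-only with a PMSG-only region, and of 2102 pairs 1 to 5 kb apart 52.3% did. The share expected if set and position were unrelated is 46.6%. Of the 260 pairs less than 1 kb apart 43.5% were of opposite sets, below that share. The change came at 5 kb: 53.3% of 458 pairs 4 to 5 kb apart were of opposite sets, and 36.6% of 525 pairs 5 to 6 kb apart. In steps of 0.5 kb the share lay between 31.9% and 40.9% in all 10 steps from 5 to 10 kb, and between 41.6% and 57.0% in the 9 steps from 0.5 to 5 kb. The number of group-only regions by distance to the nearest shared region stepped at the same place. It was 624 hCG-only and 342 PMSG-only regions at 4 to 5 kb and 836 and 437 at 5 to 6 kb, although between 1 and 10 kb it fell in every other step of 1 kb. The settings of the peak caller, among them any distance over which it reads local background, are not given in the sources used here, and their part in a step at this distance was not tested.

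**Figure D4:**
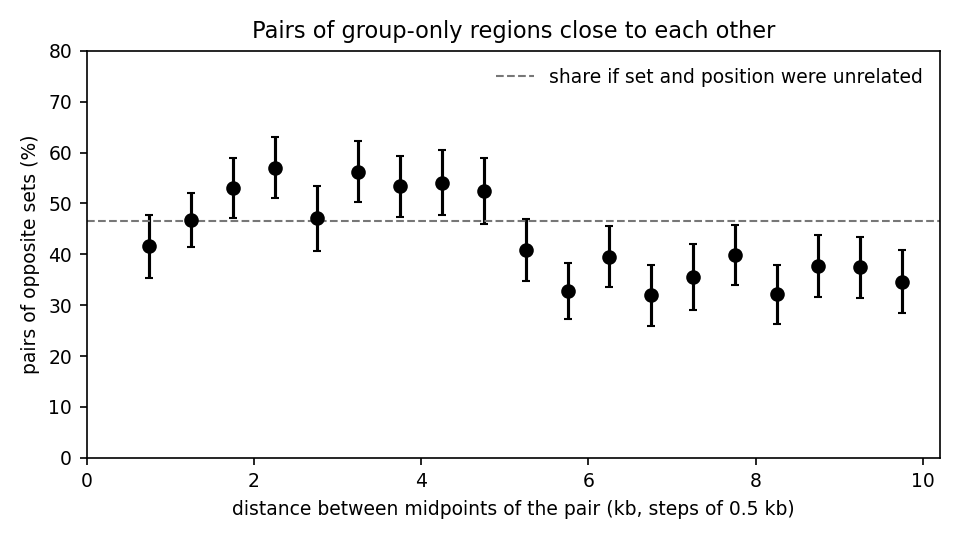
Share of pairs of group-only regions that join an hCG-only with a PMSG-only region (vertical axis, %), by distance between midpoints in steps of 0.5 kb. Bars are 95% binomial intervals, which cover counting error only, and the dashed line at 46.6% is the share if set and position were unrelated. The points drop below the line from 5 kb onwards.

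The same turn was seen with lists of equal length. The percentage of hCG-only regions among the group-only regions around an hCG-only region, minus that around a PMSG-only region, was −9.13 points within 5 kb and 17.3 points at 5 to 10 kb. By fold these values were −11.0 and 21.7 points, and by −log10 q −11.2 and 18.9 points. Beyond 10 kb the difference shrank, to 11.4 points at 10 to 25 kb and 7.61 points at 50 to 100 kb. Pairs share regions, so they are not independent, and no test was made.

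Over windows of 500 kb, the most hCG-only regions, 21 beside 6 PMSG-only regions, lay at chr8:117000001-117500000 around Pkd1l2, Cmip and Plcg2. The window of Syk, Auh and Nfil3 on chromosome 13 held 16 hCG-only and 1 PMSG-only region. Nfil3 encodes a transcription factor that acts beside the circadian clock. PMSG-only regions were most numerous, 13 beside 6 hCG-only, in the window of Gli2, Inhbb and Ralb at chr1:119000001-119500000. Inhbb encodes the inhibin beta B subunit, a product of growing follicles. The window of Egfr and Plek on chromosome 11 held 12 PMSG-only and 7 hCG-only regions. Of 4566 windows, 136 held 5 or more hCG-only and no PMSG-only region, and 23 the reverse. The hCG-only set was the larger, with 14473 against 8511 regions in all and a median of 2 against 1 per window. Windows were not counted at equal list length.

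Genes were compared by the regions within their span and 20 kb on either side. Among all 64957 regions so placed 16.9% were hCG-only and 9.01% PMSG-only. Of 17822 protein-coding genes with a region, 5262 had an hCG-only and no PMSG-only region, 2183 the reverse, 3027 had both and 7350 neither. Genes with both sets were long, with a median span of 65.6 kb, against 14.2 kb for genes with neither. They also had more regions, a median of 9 against 3, and so more room to hold both sets.

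Among genes with 10 or more regions, the highest hCG-only share was found at Ptpra, a receptor-type tyrosine phosphatase, with 7 hCG-only and no PMSG-only region of 10. Their folds ran from 3.61 to 12.4 in hCG replicate 1 and from 4.5 to 11.8 in replicate 2. Auh, an enzyme of leucine breakdown, and Srpk2, a kinase of splicing factors, each had 7 hCG-only of 11 regions and no PMSG-only region. Zbtb16 had 11 hCG-only and 1 PMSG-only of 20 regions, and Mtor, the growth-controlling kinase, 6 and 1 of 11. The others of the 10 were 1700017B05Rik, Parp8, Pip4k2a, Mre11a and Peli1, each with 6 hCG-only regions. With equal lists by fold Ptpra had 5 hCG-only regions, Auh 7, Srpk2 6 and Zbtb16 8, while Zbtb16 then had 3 PMSG-only regions. The lowest of the 10 was then 1700017B05Rik, with 2 hCG-only and 2 PMSG-only of 6 regions against 6 and 2 of 10 as deposited, and Peli1 had 4 and 1 against 6 and none.

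The highest PMSG-only share was at Rtl4 on X, a retrotransposon-derived gene, with 6 PMSG-only and 1 hCG-only of 11 regions. Cdh13, an adhesion molecule of the cadherin family, had 7 PMSG-only of 13 regions and no hCG-only region, with folds from 5.26 to 10.5 in PMSG replicate 1 and from 6.66 to 11.6 in replicate 2. Abca1, which exports cholesterol from cells, had 7 PMSG-only and 2 hCG-only of 14 regions. Nos1ap had 6 PMSG-only and no hCG-only region of 13, with the highest folds of these genes, up to 19.3 and 20.3. Agbl4 and Cdk5rap2 each had 5 PMSG-only and no hCG-only region, and Cadm2, Dpp10 and Sntg2 were also among the 10. At equal list length by fold, Rtl4, Cdh13 and Abca1 had the same numbers of regions of each set and Nos1ap had 7 PMSG-only regions. That cut took 0 and 788 peaks from the PMSG lists and 7575 and 4335 from the hCG lists. PMSG-only counts thus had little room to fall, and their staying level says little.

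Long genes with many regions leaned either way. Auts2 held 22 hCG-only and 9 PMSG-only of 67 regions, and Foxp1, a forkhead factor, 16 and 1 of 57. Robo2, an axon guidance receptor, held 16 PMSG-only and 2 hCG-only of 42 regions, and Macrod2 15 and 7 of 45. With equal lists by fold Foxp1 had 14 and 8 regions, and by −log10 q 13 and 3. Robo2 had 17 PMSG-only and 2 hCG-only regions by fold, and 18 and 2 by −log10 q. Both cuts took more peaks from the hCG lists, so they could raise PMSG-only counts more readily than lower them.

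The named genes of ovulation were grouped in 20 lists, and for each the hCG-only share of its group-only regions was set beside that of all regions within 20 kb of a gene. That share was 65.3% for the lists as deposited, 54.0% with equal lists by fold and 55.7% by −log10 q. Of the 20 lists, 7 lay above it in all 3 versions: EGF-like signalling, cumulus matrix, cyclic AMP and MAPK feedback, prostaglandin, proteases and inhibitors, cytokines, and cell junctions. As deposited these shares were 69.6%, 86.7%, 80.5%, 65.5%, 81.8%, 81.3% and 68.2% in that order, so prostaglandin, cell junctions and EGF-like signalling were near the share of all genes. Below it in all 3 lay 5: steroid synthesis, cholesterol, hormone receptors, the TGF-beta family, and C/EBP and GATA factors. Among the 20 lists as deposited, the 95% binomial interval, which covers counting error only, left out 65.3% for 2. These were cyclic AMP and MAPK feedback, from 66.0% to 89.8%, and the TGF-beta family, from 22.7% to 56.0%. By fold the interval left out the share of all genes for the TGF-beta, steroid and AP-1 lists, each below it, while that of cyclic AMP and MAPK feedback, from 48.4% to 77.3%, held it. By −log10 q it was left out by the TGF-beta list below it, and above it by cyclic AMP and MAPK feedback, from 58.1% to 84.3%, proteases and inhibitors, from 56.7% to 91.5%, and cytokines, from 57.0% to 93.4%. The lists were chosen with earlier results in view, and these counts are a description without a test.

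**Figure D5:**
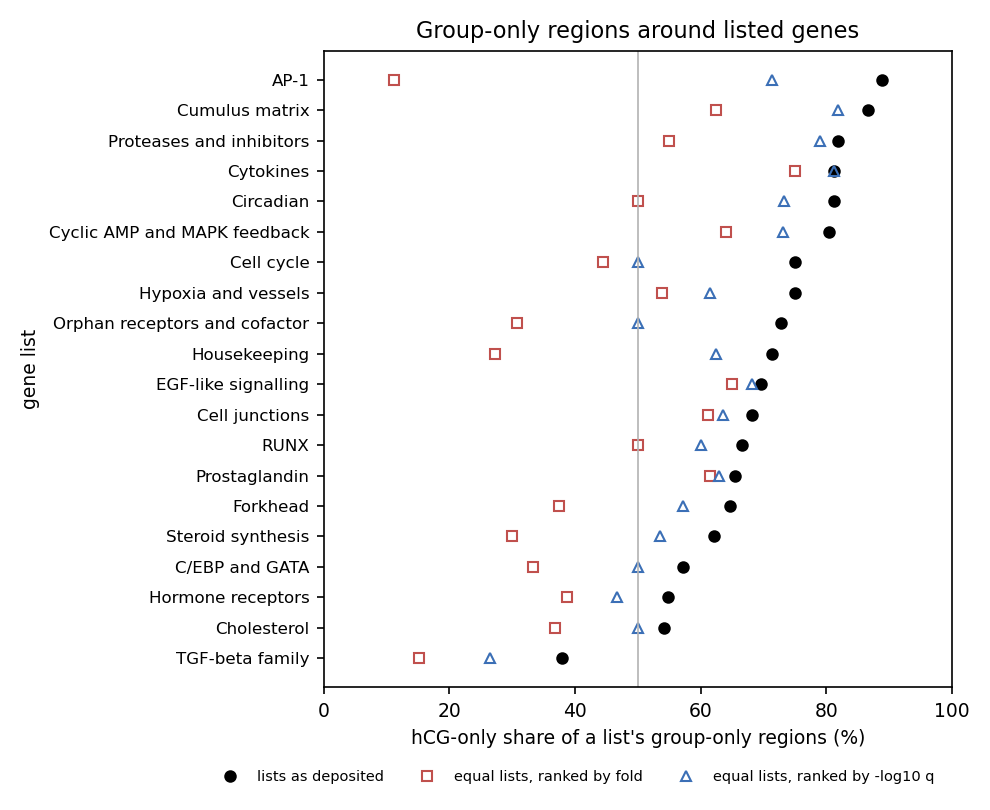
The hCG-only share (horizontal axis, %) of the group-only regions around the genes of each list, for the lists of peaks as deposited and cut to 57992 peaks by fold or by −log10 q. The TGF-beta list is lowest as deposited and by −log10 q, while by fold the AP-1 list is lowest, at 11.1% against 88.9% as deposited and 71.4% by −log10 q.

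The EGF-like list held 16 hCG-only and 7 PMSG-only of 54 regions, a share near that of all genes. In it Btc, which encodes the ligand betacellulin, had 4 hCG-only and no PMSG-only region, with folds from 3.68 to 16.1 in hCG replicate 1 and from 3.56 to 16.1 in replicate 2. Ereg, epiregulin, had 3 and 1 (1 and 1 by fold at equal length), and Areg, amphiregulin, 1 and none. Their receptor Egfr had 6 hCG-only and 5 PMSG-only of 27 regions, so the receptor gene held sites of both sets. The cytokine list held 13 hCG-only and 3 PMSG-only of 49 regions, and 12 and 4 by fold at equal length. Within it Il4ra, a receptor chain for interleukin 4, had 4 and 1, and Il1r1, the interleukin 1 receptor, 4 and 2.

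The cyclic AMP and MAPK feedback list held 33 hCG-only and 8 PMSG-only of 142 regions, by fold at equal length 25 and 14, and by −log10 q 30 and 11. Pde4d, a phosphodiesterase that degrades cyclic AMP, had 8 hCG-only and no PMSG-only region of 33, all inside the gene, with folds from 5.82 to 13.7 in hCG replicate 1 and from 5.22 to 16.8 in replicate 2. Prkar2b, a regulatory subunit of protein kinase A, had 8 hCG-only and 1 PMSG-only of 27. With equal lists by fold Pde4d had 8 and 1 and Prkar2b 3 and 2, and by −log10 q Prkar2b had 7 and 1. Dusp1 and Spry4, which dampen MAPK signalling, had no group-only region.

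The cumulus matrix list held 13 hCG-only and 2 PMSG-only of 36 regions, 10 and 6 by fold at equal length, and 9 and 2 by −log10 q. Vcan, the proteoglycan versican, had 5 and 1, and Hapln1, which links hyaluronan to it, 3 and none. Tnfaip6, which loads proteins onto hyaluronan, had 3 and 1, and Has2, the hyaluronan synthase, 1 and none, while Ptx3 had no group-only region. By fold at equal length Vcan had 3 and 3, Hapln1 3 and none, Tnfaip6 3 and 2, and Has2 none and 1. By −log10 q Vcan had 4 and 1, Hapln1 1 and none, Tnfaip6 3 and 1, and Has2 none of either. Among proteases and inhibitors, with 18 hCG-only and 4 PMSG-only of 69 regions, Serpine2 had 5 and 1, and the plasminogen activators Plat and Plau 3 and none, and 3 and 1. Adamts1, a protease needed for ovulation, had 1 and 1. By fold at equal length this list had 11 and 9, with 3 and 3 at Serpine2, and by −log10 q 15 and 4.

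Prostaglandin genes held 19 hCG-only and 10 PMSG-only of 74 regions. Slco2a1, a prostaglandin transporter, had 4 hCG-only and no PMSG-only region, with folds from 5.22 to 10.3 and from 4.90 to 10.04 in the 2 hCG lists. Pla2g4a, which releases arachidonic acid, had 6 and 4 of 20, and Ptges, which makes prostaglandin E, 4 and 3 of 13. At equal length Ptges leaned the other way, with 1 and 3 by fold and 2 and 3 by −log10 q, while the whole list had 16 and 10 by fold and 17 and 10 by −log10 q. Ptgs2, the inducible enzyme of the ovulatory follicle, had no group-only region among 4. The list for cell junctions held 15 and 7 of 68 regions, with 6 and 2 at Tjp1 and 6 and 4 at Cdh2, and 11 and 7 by fold and 14 and 8 by −log10 q for the list.

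Several transcription factor lists shifted with the ranking by fold, which kept peaks of lower fold in the PMSG lists than in the hCG lists. AP-1 genes held 8 hCG-only and 1 PMSG-only of 56 regions in the lists as deposited, 5 and 2 at equal length by −log10 q, and 1 and 8 by fold. RUNX genes held 18 and 9 of 62 regions, with 12 and 2 of 28 at Runx2 and no hCG-only but 4 PMSG-only regions at Cbfb, which encodes the partner subunit of RUNX proteins. The hCG-only folds at Runx2 ran from 3.77 to 8.12 in replicate 1 and from 4.11 to 9.26 in replicate 2, and Runx2 had 9 and 4 by fold at equal length. The RUNX list as a whole then had 13 and 13, and 15 and 10 by −log10 q. The forkhead list held 11 and 6 of 44 regions, 8 and 6 by −log10 q, and 3 and 5 by fold. The circadian list held 13 and 3 of 82, 11 and 4 by −log10 q, and 9 and 9 by fold, with 4 and 1 at Cry1 as deposited and by fold. The housekeeping list, kept for comparison, moved too, with 5 and 2 of 43 regions as deposited, 5 and 3 by −log10 q and 3 and 8 by fold.

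Genes of steroid and cholesterol supply were mixed. The steroid list held 18 hCG-only and 11 PMSG-only of 93 regions, 15 and 13 by −log10 q and 9 and 21 by fold. Star, which carries cholesterol into mitochondria, had 4 hCG-only and no PMSG-only region, with folds from 3.30 to 7.67 in hCG replicate 1 and from 2.91 to 7.06 in replicate 2. By fold at equal length Star had 2 and none, and by −log10 q 4 and none. Cyp19a1, the aromatase of oestrogen synthesis, had 2 of each set. Cyp11a1, which starts steroid synthesis, had no hCG-only and 1 PMSG-only region of 10. The cholesterol list held 13 hCG-only and 11 PMSG-only of 77 regions, 11 and 11 by −log10 q and 7 and 12 by fold.

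Hormone receptor genes held 17 hCG-only and 14 PMSG-only of 91 regions, but more PMSG-only regions at equal length, with 12 and 19 by fold and 14 and 16 by −log10 q. Prlr, the prolactin receptor, accounted for 6 hCG-only regions with no PMSG-only region among 13, and its folds ran from 3.8 to 10.1 and from 4.44 to 9.87 in the 2 hCG lists. Fshr, the receptor for follicle-stimulating hormone, had 1 hCG-only and 3 PMSG-only of 10, and Esr2, oestrogen receptor beta, 3 and 4 of 19. Lhcgr, the receptor for the surge itself, had 2 and 1 of 10 as deposited and 2 and 2 of 9 by fold and by −log10 q. Pgr, the progesterone receptor, had no group-only region among 3. By fold at equal length Prlr had 3 hCG-only and 2 PMSG-only regions, and by −log10 q 6 and none.

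The TGF-beta family was the only list with more PMSG-only than hCG-only regions as deposited, 18 against 11 of 100. Of its 8 genes, 5 had more PMSG-only and 3 more hCG-only regions. By −log10 q at equal length it held 25 against 9, and by fold 28 against 5, though both cuts took more peaks from the hCG lists. Bmpr1b, a receptor for bone morphogenetic proteins, had 7 PMSG-only and 2 hCG-only of 43 regions, all inside the gene, with PMSG folds from 2.68 to 9.89 in replicate 1 and from 2.78 to 8.18 in replicate 2. Inhbb had 2 PMSG-only and no hCG-only region, both outside the gene, and Amh, anti-Müllerian hormone, had 3 and 2. Inhba, the beta A subunit, leaned to hCG-only with 3 against 2 as deposited but had 1 against 3 by fold and 3 against 3 by −log10 q. Amhr2, with 2 hCG-only and 1 PMSG-only region, and Acvr2a, with 1 and none, leaned the same way as deposited.

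The libraries of the progesterone receptor experiment were not used by the rule and were looked up at the same regions. They came from another strain, which carries a targeted Pgr allele, at 6 h after hCG by their tag and protocol, with 2 wild-type and 2 knockout libraries. Of the hCG-only regions, wild-type replicates 1 and 2 held 79.9% and 91.3% and knockout replicates 1 and 2 held 63.4% and 44.7%. Of the PMSG-only regions they held 76.6%, 45.6%, 21.5% and 34.7%. Each of the 4 libraries held a larger share of the hCG-only set, but the difference ran from 3.28 points in wild-type replicate 1 and 9.96 points in knockout replicate 2 to 45.7 and 41.8 points in the others. The size of this difference thus varied more between replicates of a genotype than between genotypes. In both sets each wild-type library held a larger share than each knockout library, but the wild-type lists were also longer, with 80137 and 84313 intervals against 58851 and 55654. The part of list length in this order was not tested. Leaving out hCG replicate 1 turned the difference to −5.08 points in wild-type replicate 1 and −0.230 points in knockout replicate 2, and leaving out hCG replicate 2 to −3.05 points in wild-type replicate 1. Of the regions held by all 4 lists, these libraries held 93.2% to 98.5%.

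Among named genes, the hCG-only regions of Runx2 were held by 12, 12, 11 and 11 of 12 in wild-type 1 and 2 and knockout 1 and 2. The 6 of Prlr were held by 6, 6, 6 and 5, and the 4 of Btc and of Slco2a1 by all 4 libraries. At Zbtb16, 10 and 10 of the 11 hCG-only regions were held in the wild-type libraries and 2 and 1 in the knockout libraries, unlike the nearly even pattern at Runx2. At Cdh13 the 7 PMSG-only regions were held by 5, 3, 1 and 2, and at Rtl4 the 6 PMSG-only regions by 6, 3, 0 and 2. Of the hCG-only regions 40.9% were held by all 4 of these libraries and 7.03% by none, and of the PMSG-only regions 13.6% and 19.4%.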

How the data were processed

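ATAC-seq peak lists of 4 libraries titled hCG or PMSG, and of 4 libraries of the progesterone receptor experiment, were used as the authors deposited them, 1 list per library. The submitters' processing notes name Bowtie2, MACS2 and mm10, and settings, versions and any shift of reads for the Tn5 cut are not given in the sources used here. The fold in column 7 of the deposited lists was read as enrichment of a summit over background, a ratio within its library. Columns 8 and 9 of the deposited lists were read as −log10 p and −log10 q, with 10 as the lowest −log10 q. The deposited score, 10 times the −log10 q, was not used. The lists hold no read counts, so depth is unknown and the number of libraries limits the precision. Whether the replicates differ in more than their pools is not stated, so a p-value measures only the spread between these samples.

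Summits of an interval were counted as 1 interval with its best fold. Intervals on chromosomes 1 to 19 and X that shared 1 bp were merged with Python 3.11.15, numpy 2.4.6 and pandas 2.3.3, and the steps were tested on simulated lists. Genes and starts came from RefSeq tables of GRCm38.p6, the same build as mm10: a list had a peak over 56.2% to 57.9% of starts, against 1.92% to 2.68% after a shift of 100 kb. Chromosome 18 has no starts in the promoter table, so its 2763 regions were not analysed here for distance to starts. No genome was used, so region sequences, exons and introns were not analysed here. Covered length was compared by an exact permutation test over libraries (scipy 1.17.1), and the sets by counts and medians without a test. Named were the 10 genes of highest share per set among those with 10 or more regions, all members of the lists and markers, the 10 best-ranked gene-start regions and the 5 largest clusters and widest regions per set. Windows, long genes and the other clusters were chosen after their values were seen. A few items that these rules name are not reported here. The members, lists and rules were chosen with earlier results of these data known.

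Alternatives were lists of equal length by fold, a −log10 q of 20 or more, the 20000 peaks of highest fold, a covered share of 25%, merging within 200 bp, other cluster gaps, all genes of the table, a flank of 50 kb, and leaving out each library. Equal length by −log10 q, and all alternatives for the ratios by gene density and on X, were added after seeing the data.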

Additional observations from a re-analysis of the deposited data

Results flagged for a closer look

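The 4 peak lists held 31 intervals on chromosome Y in all, between 7 and 9 per list, although granulosa cells come from females. They were left out of every comparison, and their source was not tested.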

How the results depend on the processing

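With equal lists by fold, the hCG-only to PMSG-only ratio was 1.15, median widths were 369 and 330 bp and median gene distances 26.0 and 27.1 kb, with 0.0413% and 0.504% of regions in clusters. The excess of hCG-only over PMSG-only regions held was 2.13 and 37.7 points in wild-type libraries 1 and 2 and 33.1 and 3.65 points in knockout libraries 1 and 2, and the ratio on X was 0.854. By −log10 q the ratio was 1.16, widths were 378 and 330 bp, the PMSG-only distance was 30.6 kb, clusters held 0.164% and 0.220%, the excess was 40.5 points in wild-type 2 and 38.0 points in knockout 1, and the ratio on X was 0.785. At a −log10 q of 20 or more the ratio was 1.86, widths were 394 and 358 bp, clusters held 0.532% and 0.132%, the excess was 1.91 points in wild-type 1 and 44.6 points in knockout 1, and the ratio in windows without a gene was 1.002. With 20000 peaks per list the sets shrank to 5104 and 4775 regions, a ratio of 1.07, with widths of 566 and 597 bp, distances of 28.3 and 15.1 kb and 0% and 0.105% in clusters. The excess was then −0.786 and 6.62 points in the wild-type and 12.002 and −3.45 points in the knockout libraries, and the ratio was 0.756 in windows of 10 or more genes and 0.885 on X. Counted to all genes of the table, the distances were 10.9 and 13.8 kb. A cluster gap of 25 kb gave 5.20% and 0.505% in clusters, and 5 kb gave 0% and 0%. A covered share of 25% and merging within 200 bp kept each value within its interval.

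Leaving out 1 library at a time, the ratio ranged from 1.42 to 1.95, hCG-only width from 283 to 366 bp, PMSG-only width from 239 to 316.5 bp, hCG-only distance from 22.0 to 22.7 kb and PMSG-only distance from 28.7 to 31.7 kb. Shares in clusters ranged from 0.656% to 1.10% and from 0.0450% to 0.0935%. The excess ranged from −5.08 to 11.4 points in wild-type 1, from 33.1 to 48.8 in wild-type 2, from 28.7 to 45.3 in knockout 1 and from −0.230 to 17.8 in knockout 2. The ratio ranged from 0.789 to 1.05 in windows without a gene and from 0.900 to 1.29 on X. The causes were not tested.

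With the replicate block, the difference within same-numbered libraries, hCG lists covered 8.72 Mb more. The overlap of hCG with PMSG lists (Jaccard index of base pairs) was 0.559 and 0.558 for same-numbered libraries and 0.566 and 0.549 for the others, so the numbers gave no sign of pairing.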
